A study of Mus musculus with 12 samples.

Results

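The Myc and Mxd network comprised 10 genes here: Myc, Mycn, Max, Mlx, Mxd1, Mxd3, Mxd4, Mxi1, Mnt and Mga. Members were all probes, other than control spots, whose gene name on the array was one of these, which gave 12 probes for the 10 genes out of 55675 probes with 34796 gene names. The network was selected on earlier results of the challenge comparison, in which Mxd3 differed between BA+DMSO and DMSO, so values of that comparison are given below as a description without a test. The other comparisons were tested. The comparison of BA+rapamycin with rapamycin shares no array with the one that chose the network, although the variance in its test came from all 12 arrays. The comparisons of rapamycin with vehicle each share 3 arrays with the one that chose the network, and the interaction holds all 6 of its arrays. For Mxd3, whose BA+DMSO values made the choice, the difference of BA+rapamycin from BA+DMSO and the interaction are therefore a description too.

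RNA was measured in the aorta of adult male C57BL/6J mice on day 3. There were 4 groups of 3 mice, and each of the 12 mice had its own array. DMSO mice received the vehicle of rapamycin alone, and rapamycin mice received 2 mg/kg/day of this mTOR inhibitor. BA+DMSO mice received the vehicle and the BAPN + AngII challenge, the model of aortic dissection, which is 150 mg/kg/day of beta-aminopropionitrile, an inhibitor of collagen crosslinking, with 1 µg/kg/min of angiotensin II. BA+rapamycin mice received the challenge and rapamycin. The DMSO samples carry Pre in their titles, although day 3 is given for every group in the series' design. The whole aortic wall was used, so a lower value can come from fewer cells of a type or from less RNA per cell, and these cannot be told apart.

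Myc and Mycn are transcription factors that bind DNA as dimers with Max and activate genes of growth and ribosome production. The Mxd proteins, Mxi1, Mnt and Mga also pair with Max, compete for the same sites and recruit corepressors, and Mlx is a Max-like partner that pairs with the glucose-responsive factors Mlxip and Mlxipl as well as with some Mxd proteins. The balance between Myc and Mxd dimers is known for its part in the switch between cell division and quiescence or differentiation, and in the vessel wall Myc is an early response gene of smooth muscle cells.

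The 8 smooth muscle marker genes were well above background on every array. The 75th percentile of signal on an array, a measure of its brightness, was 221 to 280 intensity units in DMSO, 257 to 337 in rapamycin, 78.1 to 246 in the BA+DMSO group and 74.6 to 109 in BA+rapamycin. All DMSO arrays and 1 rapamycin array lay on the first slide, and 2 rapamycin arrays and all challenged arrays lay on the second, so slide and challenge cannot be fully told apart. The BA+DMSO arrays differed among themselves. Across probes, replicates 2 and 3 correlated at 0.912, the lowest value among these arrays, while replicate 1 correlated at 0.953 to 0.961 with the others. Counts between BA+rapamycin and BA+DMSO rose most without replicate 2, so its effect is given beside the tests of that comparison.

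The site that Max dimers prefer is the E-box, spelled CACGTG and identical on both strands. Promoter sequences from RefSeq, on build GRCm38.p6 and running from 250 bases before to 50 bases after a start site, were found for 9 of the 10 members. The window of Max, Mlx, Mnt or Mxd4 held 1 E-box each. The first base of this E-box lay 3 bases before the start site in Max, 40 before it in Mlx, 123 before it in Mnt and 219 before it in Mxd4. An E-box was present in 7.15% of all 32851 promoter windows. The windows of Mxd1, Mxd3, Mga, Mycn and Mxi1 held none. The letters TTTCCCGC or TTTGGCGC, which E2F factors bind, were searched on both strands and occurred in 1.56% of all windows. Among the members these letters were found in the window of Mycn alone, at 2 places. The 4 windows with an E-box are shown because they carry the network's own motif, and that of Mxd3 because the network was chosen on its RNA. Capitals mark the E-box.
Max promoter, chr12:76962199-76962498, minus strand: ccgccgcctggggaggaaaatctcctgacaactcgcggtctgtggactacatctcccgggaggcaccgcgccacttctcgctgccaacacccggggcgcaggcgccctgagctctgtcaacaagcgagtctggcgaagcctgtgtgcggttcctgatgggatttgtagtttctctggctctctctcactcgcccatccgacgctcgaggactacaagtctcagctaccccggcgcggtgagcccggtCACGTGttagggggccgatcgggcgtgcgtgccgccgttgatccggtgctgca
Mlx promoter, chr11:101087040-101087339, plus strand: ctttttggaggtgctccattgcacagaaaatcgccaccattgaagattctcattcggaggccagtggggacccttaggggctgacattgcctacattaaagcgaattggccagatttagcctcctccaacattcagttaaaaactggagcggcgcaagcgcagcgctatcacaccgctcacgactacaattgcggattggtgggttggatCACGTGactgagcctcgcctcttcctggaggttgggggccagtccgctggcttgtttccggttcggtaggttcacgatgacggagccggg
Mnt promoter, chr11:74830674-74830973, plus strand: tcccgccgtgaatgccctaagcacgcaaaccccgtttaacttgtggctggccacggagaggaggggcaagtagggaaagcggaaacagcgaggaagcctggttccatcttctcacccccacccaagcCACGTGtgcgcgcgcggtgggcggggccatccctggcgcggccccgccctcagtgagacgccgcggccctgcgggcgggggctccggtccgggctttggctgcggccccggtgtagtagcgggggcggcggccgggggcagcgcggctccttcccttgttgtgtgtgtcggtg
Mxd4 promoter, chr5:34187661-34187960, minus strand: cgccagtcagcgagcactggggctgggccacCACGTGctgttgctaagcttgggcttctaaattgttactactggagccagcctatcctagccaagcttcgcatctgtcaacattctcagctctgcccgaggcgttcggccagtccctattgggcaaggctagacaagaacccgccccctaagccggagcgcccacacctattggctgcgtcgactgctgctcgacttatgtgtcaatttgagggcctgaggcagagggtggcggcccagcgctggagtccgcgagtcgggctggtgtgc
Mxd3 promoter, chr13:55329682-55329981, minus strand: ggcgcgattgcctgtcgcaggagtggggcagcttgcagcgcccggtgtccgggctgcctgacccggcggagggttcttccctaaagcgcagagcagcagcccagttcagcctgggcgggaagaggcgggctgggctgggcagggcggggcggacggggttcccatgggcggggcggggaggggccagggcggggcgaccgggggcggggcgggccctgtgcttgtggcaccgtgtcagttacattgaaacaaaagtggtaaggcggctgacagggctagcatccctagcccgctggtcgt

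Values below are log2 signal relative to the 75th percentile of the same array. Of the 10 members, 8 passed the filter on low signal, which asked that all 3 arrays of some group show signal well above background. Mxd3 passed through BA+DMSO alone. Mycn and Mxi1 were not well above background on any array and were not tested. Their signal ranged from -5.82 to -3.22 for Mycn and from -6.10 to -4.48 for Mxi1.

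**Figure D1:**
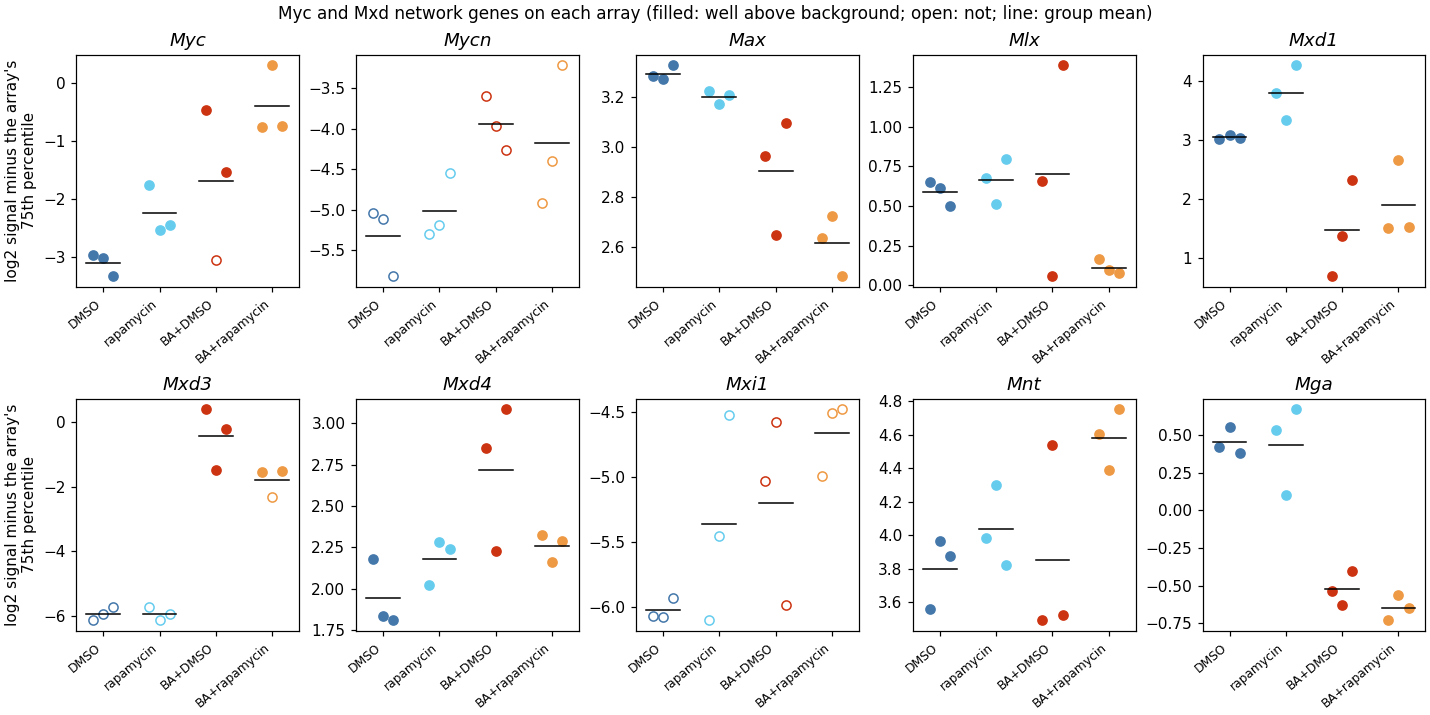
Log2 signal minus the 75th percentile of the array (vertical axis, a scale of its own in each panel) for the 10 genes in the 4 groups, with 1 point per array, filled where the probe was well above background, and a line at the group mean. Mxd3 was well above background only in challenged aortas, and its BA+rapamycin values, at most -1.52, lay below its BA+DMSO values, at least -1.48.

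Under rapamycin, the BAPN + AngII challenge went with higher RNA of Myc and with lower RNA of Mxd1, Mga and Max. Mxd3, which passed the filter through BA+DMSO alone, is left out of the counts of this comparison and described by itself. Of the other 7 tested members, 1 was called higher in BA+rapamycin than in rapamycin at an adjusted p under 0.05, where 19.8% of all 20026 tested genes were called higher, and 3 were called lower, where 22.9% of all genes were. Mxd4, Mnt and Mlx did not pass the test. The median difference of the 7 members was -0.55 on the log2 scale, beside -0.07 over all tested genes. Within the second slide, which leaves 2 rapamycin arrays, 1 of the 7 was called, Mga, beside 12% of all genes in either direction. With the brightness of each array as a covariate 0 were called, beside 6.89%.

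Mxd3 encodes a Max-binding repressor that is known to be expressed in dividing cells, at the S phase. Its probe lies at chr13:55427000-55427059 of build mm9. Mxd3 was not well above background in any unchallenged mouse, with values of -6.12, -5.96 and -5.71 in DMSO and -5.74, -6.13 and -5.94 in rapamycin. In BA+DMSO its values were 0.40, -1.48 and -0.21, with the lowest in replicate 2. In BA+rapamycin they were -1.55, -2.33 and -1.52, of which the middle one was not well above background. Of the challenged aortas, 5 were well above background and none of the unchallenged ones were.

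The mean of Mxd3 in BA+rapamycin was at least 4.87-fold higher than in rapamycin, measured against the lowest signal well above background on the rapamycin arrays, with 2 of the 3 BA+rapamycin arrays well above background. The fit across all genes gave an adjusted p of 0.000132 in limma, with the rapamycin arrays at values that were not above background. Since Mxd3 also passed the filter through BA+DMSO alone, nothing is read from this p. In the comparison that chose the network, BA+DMSO was at least 12.4-fold higher than DMSO.

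The mean of Mxd3 in BA+rapamycin was lower than in BA+DMSO, whose values chose the network. The difference was -1.37 ± 0.40 (log2, SE), or 2.58-fold, and is given without a test. The gap between the lowest BA+DMSO value, -1.48, and the highest BA+rapamycin value, -1.52, was far smaller than the spread within either group.

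Myc, the activator of the network, has 1 probe at chr15:61821417-61821476 of mm9. Its values were -2.97, -3.02 and -3.34 in DMSO and -1.77, -2.54 and -2.45 in rapamycin. They were -0.48, -3.05 and -1.54 in BA+DMSO, where replicate 2 was not well above background. In BA+rapamycin they were -0.76, 0.30 and -0.75. The 3 BA+rapamycin values were above all rapamycin values, whereas BA+DMSO overlapped every other group.

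Myc was 3.59-fold higher in BA+rapamycin than in rapamycin, a difference of 1.84 ± 0.54 (log2, SE, adjusted p = 0.0202). This call was lost in 6 of 26 alternatives. Within the second slide the difference was 2.09 with an adjusted p of 0.0730. The call was also lost without rapamycin replicate 2 or 3 or BA+rapamycin replicate 2. So it was with array brightness as a covariate and with the replicate block described below (adjusted p = 0.160). The difference of BA+rapamycin from BA+DMSO was 1.28 ± 0.54 and was not called (adjusted p = 0.227). Leaving out BA+DMSO replicate 2 gave 0.60 ± 0.40, 1.52-fold, with an adjusted p of 0.249, and leaving out replicate 1 gave 1.89 with an adjusted p of 0.0919. Myc was 0.86 ± 0.54 higher in rapamycin than in DMSO with no overlap of values, and this was not called either (adjusted p = 1.000). Mxd3 and Myc stood in a different order among challenged mice, with the mean of Mxd3 highest in BA+DMSO and that of Myc highest in BA+rapamycin, where the values of Myc in both groups overlapped.

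**Figure D2:**
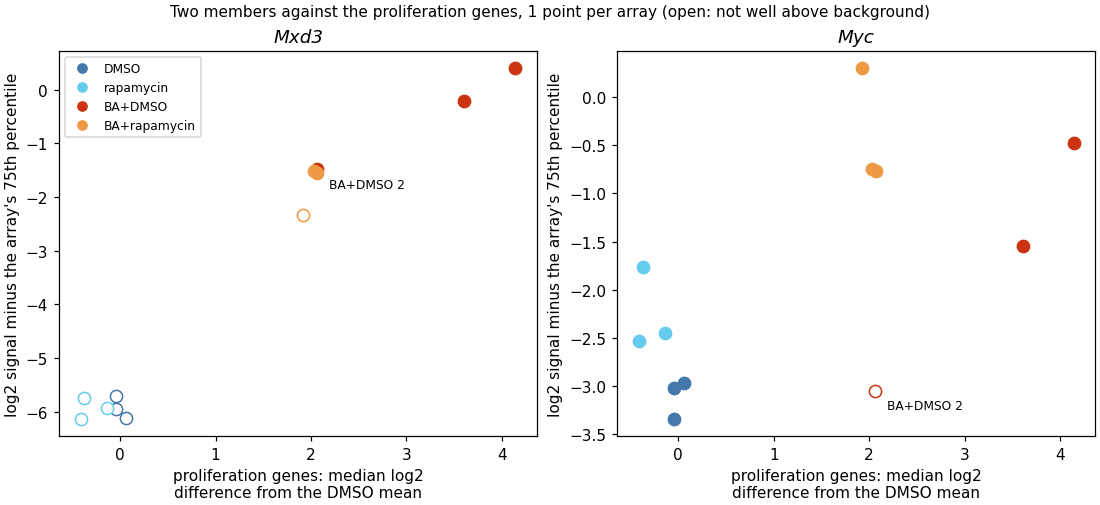
Log2 signal of Mxd3 and of Myc (vertical axes) against the median log2 difference of 15 proliferation genes from their DMSO mean (horizontal axis), with 1 point per array, open where the member was not well above background. Of the 15 genes, 3 passed the filter through challenged groups alone. BA+DMSO replicate 2 lay at 2.06 on the horizontal axis, beside the BA+rapamycin arrays at 1.92 to 2.07, with Mxd3 at -1.48 and Myc at -3.05.

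Max, the common partner of Myc and the Mxd proteins, has its probe at chr12:78038272-78038331 of mm9. It was held within a narrow range in unchallenged mice, at 3.28, 3.27 and 3.32 in DMSO and 3.22, 3.17 and 3.21 in rapamycin. In BA+DMSO the values were 2.96, 2.65 and 3.10, and in BA+rapamycin they were 2.64, 2.72 and 2.48. All 6 challenged aortas lay below all 6 unchallenged ones. BA+rapamycin was lower than rapamycin by 1.50-fold, a difference of -0.59 ± 0.16 (log2, SE, adjusted p = 0.0146), and within the second slide the difference was -0.57 with an adjusted p of 0.126. This call of Max was lost in 5 of 27 alternatives, over which the difference ran from -0.89 to -0.31. BA+rapamycin differed from BA+DMSO by -0.29 ± 0.16 (adjusted p = 0.302), with overlapping values. Without BA+DMSO replicate 2, whose value was the lowest of its group, Max was 1.33-fold lower in BA+rapamycin (adjusted p = 0.0240).

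Mlx, the partner of the glucose-responsive factors, is measured at chr11:100952426-100952485 of mm9. Its values were 0.65, 0.62 and 0.50 in DMSO, 0.68, 0.51 and 0.80 in rapamycin, 0.66, 0.06 and 1.38 in BA+DMSO and 0.17, 0.09 and 0.08 in BA+rapamycin. The BA+rapamycin values were below every unchallenged value, and BA+DMSO spanned all of them. The difference of BA+rapamycin from rapamycin was -0.55 ± 0.27 (adjusted p = 0.121) and that from BA+DMSO was -0.59 ± 0.27 (adjusted p = 0.253), and neither was called. Once BA+DMSO replicate 2 was left out both were called, at -0.55 (adjusted p = 0.0242) and -0.91 (adjusted p = 0.00843), beside 58.3% and 41% of all genes. That array is in neither group of the comparison with rapamycin. There the difference stayed the same and only the standard error fell, from 0.27 to 0.18. Without BA+DMSO replicate 3, whose value was the highest of its group, the difference from BA+DMSO was -0.25 (adjusted p = 0.673). The difference of Mlx from rapamycin turned sign in 1 of 27 alternatives, to 0.54.

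Mxd1, a repressor that is known to accumulate as cells leave the cycle and differentiate, was lower after the challenge by both of its probes. The probe with the higher mean, at chr6:86599053-86599112 of mm9, gave 3.03, 3.09 and 3.03 in DMSO and 3.80, 3.34 and 4.27 in rapamycin. It gave 0.69, 1.38 and 2.33 in BA+DMSO and 1.51, 2.66 and 1.53 in BA+rapamycin. No challenged value reached an unchallenged one. The challenge under rapamycin went with a 3.74-fold lower mean, a difference of -1.90 ± 0.42 (adjusted p = 0.00631). The other probe, at chr6:86597190-86597249, gave -1.19 ± 0.18 for the same comparison (adjusted p = 0.00107). Within the second slide the difference of the first probe was -1.90 with an adjusted p of 0.0589. Neither probe was called between BA+rapamycin and BA+DMSO, where the differences were 0.43 ± 0.42 and -0.11 ± 0.18.

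Mxd4 is a further repressor of the Mxd group. Its probe with the higher mean, at chr5:34519323-34519382 of mm9, gave 2.18, 1.83 and 1.81 in DMSO, 2.02, 2.28 and 2.24 in rapamycin, 2.85, 2.23 and 3.08 in BA+DMSO and 2.32, 2.16 and 2.29 in BA+rapamycin. BA+DMSO was the highest group, and 2.23 in its replicate 2 lay among the rapamycin values. In the comparison of BA+rapamycin with rapamycin this probe differed by 0.08 ± 0.22 (adjusted p = 0.790). The other probe, which shares 13 bases of its target with the first, gave 0.62 ± 0.21 (adjusted p = 0.0375), so the 2 probes of Mxd4 disagreed on this call. Between BA+rapamycin and BA+DMSO the first probe differed by -0.46 ± 0.22 (adjusted p = 0.260), and without BA+DMSO replicate 2 it was 1.63-fold lower (adjusted p = 0.00939). The other probe then differed by 0.09, in the opposite direction (adjusted p = 0.715), so this call rests on 1 of the 2 probes.

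Mnt, the broadly expressed Max-binding repressor, is measured at chr11:74658915-74658974 of mm9. It stood at 3.56, 3.96 and 3.88 in DMSO, 3.98, 4.30 and 3.83 in rapamycin, 3.49, 4.54 and 3.52 in BA+DMSO and 4.61, 4.39 and 4.75 in BA+rapamycin. The BA+rapamycin values were above all unchallenged ones, and BA+DMSO replicate 2 lay among them. The difference was 0.55 ± 0.28 from rapamycin (adjusted p = 0.128) and 0.73 ± 0.28 from BA+DMSO (adjusted p = 0.202). With that array left out, Mnt was 2.11-fold higher in BA+rapamycin than in BA+DMSO (adjusted p = 0.00426), beside 41% of all genes called. It was also called against rapamycin (adjusted p = 0.0193), beside 58.3%. That array is in neither group of the comparison with rapamycin. There the difference stayed the same and only the standard error fell, from 0.28 to 0.17. The difference of Mnt from rapamycin turned sign in 1 of 27 alternatives, that with array brightness as a covariate, to -0.20.

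Mga, a large protein that pairs with Max and belongs to a Polycomb-type repressor complex, differed by challenge. Its probe lies at chr2:119792479-119792538 of mm9. The standard deviation within a group ranged from 0.08 in BA+rapamycin to 0.30 in rapamycin. Values were 0.42, 0.55 and 0.38 in DMSO and 0.53, 0.10 and 0.67 in rapamycin, against -0.53, -0.63 and -0.40 in BA+DMSO and -0.73, -0.56 and -0.65 in BA+rapamycin. Every unchallenged value was above 0 and every challenged value was below 0. BA+rapamycin was 2.12-fold lower than rapamycin, a difference of -1.08 ± 0.17 (adjusted p = 0.00150), and the call held within the second slide at -1.04 (adjusted p = 0.0402). It was lost with array brightness as a covariate (adjusted p = 0.0834). Rapamycin alone gave a difference of -0.02 ± 0.17, and rapamycin under challenge one of -0.13 ± 0.17.

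**Figure D3:**
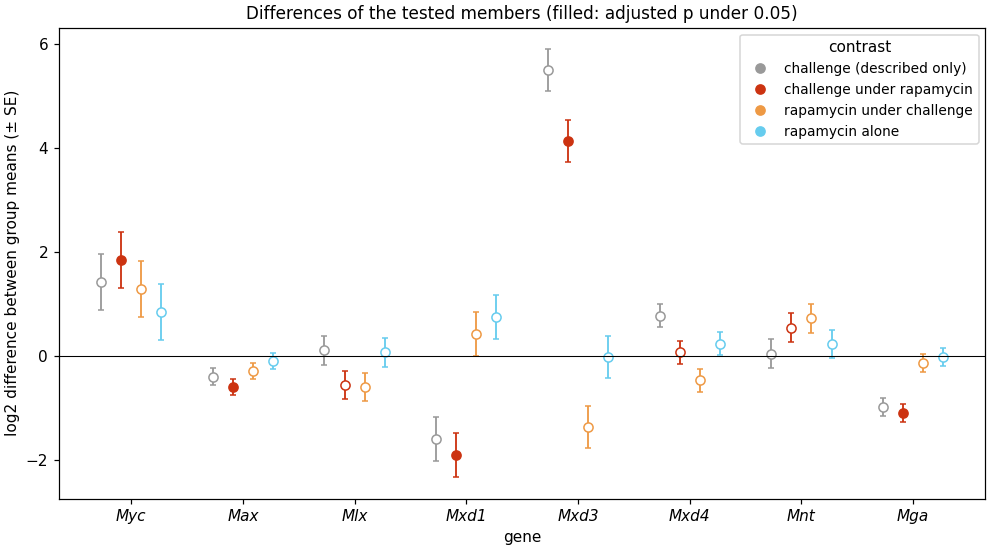
Log2 differences between group means with their standard errors (vertical axis) for the 8 tested genes (horizontal axis) in 4 contrasts, filled where the adjusted p was under 0.05. The challenge in vehicle-treated mice is in grey and drawn open throughout, since it chose the network. For the challenge under rapamycin, Mxd3 is plotted at its fitted difference, which like its grey point is no bound, and at least 4.87-fold is the measured bound.

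For the challenge in vehicle-treated mice the values of the 8 members are a description. Mxd3 and Mxd4 were higher and Mxd1 and Mga lower in BA+DMSO at an adjusted p under 0.05. The shares of all genes were 10.4% higher and 11% lower. Because this comparison chose the network, the threshold is no test here and nothing is read from this count. The differences were 0.78 for Mxd4, -1.58 for Mxd1 and -0.97 for Mga on the log2 scale. For Myc, Max, Mnt and Mlx they were 1.42, -0.39, 0.05 and 0.11. Without BA+DMSO replicate 2 those of Myc, Mnt and Mlx were 2.10, -0.29 and 0.43. For Mxd3, which was not well above background in DMSO, the bound given above stands in place of a difference.

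Between BA+rapamycin and BA+DMSO, limma called 0 of 8 members, while 0.305% of all genes were called in either direction. At an unadjusted p under 0.05 there were 3, Myc, Mxd3 and Mnt, beside 20.5% of all genes. The count was 5 without BA+DMSO replicate 2, with Max, Mxd3, Mxd4 by 1 of its probes and Mlx lower and Mnt higher, and 41% of all genes were then called. It was 0 without replicate 1 or 3 of that group, beside 0.834% and 0.13% of all genes. With array weights, which give less weight to arrays that fit the group means poorly, it was 5 as well, beside 25.9% of all genes and 7094 of 27801 probes. Mxd3 is in these counts only as a description. In unchallenged mice, 0 of 8 members were called between rapamycin and DMSO, beside 0.00499% of all genes, and 0 had an unadjusted p under 0.05, beside 4.43%.

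Whether the response to the challenge differed between rapamycin and vehicle was tested by the interaction, which is the difference of rapamycin under challenge from rapamycin alone. Of the 8 members 0 were called, as were 0% of all genes, and 2 had an unadjusted p under 0.05, Mxd3 and Mxd4, beside 6.01% of all genes. For Mxd4 the interaction was -0.70 ± 0.31 (adjusted p = 0.737 in limma) by the probe with the higher mean and -0.11 ± 0.30 by the other. Nothing is read from Mxd3 here, which was not well above background in the unchallenged groups. Without BA+DMSO replicate 2, Mxd4 by 1 of its probes and Mlx were called, beside 11.2% of all genes. The interaction for Myc was 0.43 ± 0.76 (adjusted p = 0.848), and its sign turned without that array, to -0.26.

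The partners and targets of the network were taken from lists written with earlier results of these data known, and are given for the challenge under rapamycin, with each list's median on the log2 scale beside -0.07 over all genes, and its counts beside 19.8% of all genes called higher and 22.9% called lower. Of the Sin3 corepressor complex, which Mxd proteins recruit, 4 of 9 tested genes fell and 0 rose, with a median of -0.83. Rbbp7, a histone-binding subunit, fell by 1.07, and Sin3a, the scaffold, fell by 1.01 (adjusted p = 0.00563 and 0.00973). Of the 7 tested partners of Mga, 2 fell, Pcgf6 at -0.92 and Rnf2 at -0.88, both subunits of its Polycomb-type complex, and the median was -0.35. Within the second slide, 1 Sin3 gene, Rbbp7, and 0 Mga partners were called.

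Among 10 coactivators of Myc, 2 rose and 2 fell, with a median of -0.12. The acetyltransferase Kat2a rose by 0.86, while Actl6a fell by 0.86 and Ep400 by 0.64, both subunits of chromatin remodelling complexes. Among 8 tested genes of Myc protein turnover, Usp36, a deubiquitinase that stabilises Myc, rose by 2.24, and 3 fell, with a median of -0.29. The largest fall was that of the phosphatase subunit Ppp2r5a, at -1.30. Of Myc's own targets, 6 of 29 tested genes rose and 4 fell, both near or below the shares of all genes, with a median of 0.06. Tert, the catalytic subunit of telomerase, rose by 1.35 and the ribosome assembly factor Bop1 by 0.80, while the cyclin Ccnd2 fell by 1.49 and nucleolin, Ncl, by 0.83. Within the second slide 0 coactivators were called, with 1 turnover gene, Ppp2r5a, and 1 target, Ccnd2.

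The 2 dimer partners of Mlx moved in opposite directions, with Mlxip at -1.07 (adjusted p = 0.0120) and Mlxipl at 1.07 (adjusted p = 0.0480), and neither was called within the second slide. Of 7 tested targets of these dimers, Txnip, an inhibitor of thioredoxin and of glucose uptake, fell by 1.69, and Elovl6, a fatty acid elongase, rose by 1.39. The median of these targets was 0.13, and the calls of Txnip and Elovl6 held within the second slide. Mycl1 and Mycs, the Myc family genes outside the members, were not well above background on any array.

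**Figure D4:**
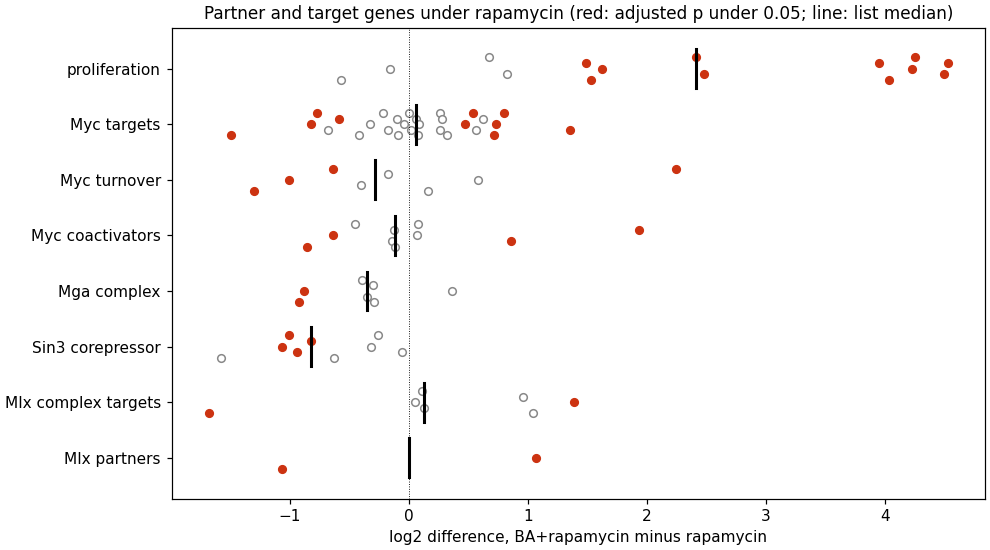
Log2 difference of BA+rapamycin from rapamycin (horizontal axis) for each tested gene of 8 lists (rows), in red where the adjusted p was under 0.05, with a line at the median of the list. The medians were -0.83 for the Sin3 corepressor and 0.06 for Myc targets, and the row of proliferation genes holds 3 that passed the filter through challenged groups alone.

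Many genes of the cell cycle were also higher after the challenge. Of 15 tested proliferation genes, 12 passed the filter through an unchallenged group. Among these 12, 8 rose and 0 fell in BA+rapamycin against rapamycin, beside 19.8% and 22.9% of all genes, with a median of 1.58, and within the second slide 7 rose, beside 6.32%. Top2a, Ccnb1 and Cdk1 passed through challenged groups alone and so are not counted. Ccna2, the cyclin of S phase, rose by 4.53, with 2 of 3 rapamycin arrays well above background, and Top2a, a topoisomerase of dividing cells, was at least 5.41-fold higher. Between BA+rapamycin and BA+DMSO the median of the 12 genes was -1.08 with 0 called, and without BA+DMSO replicate 2 it was -1.68 with 11 lower, beside 24% of all genes. The median of all 15, Top2a, Ccnb1 and Cdk1 included, was also taken relative to DMSO on each array. It was 4.14, 2.06 and 3.61 in BA+DMSO and 2.07, 1.92 and 2.03 in BA+rapamycin, for replicates 1, 2 and 3.

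The genes whose values over the 12 arrays were most like those of Mxd3 were Sgol1, Mybl2 and Uhrf1, each with a Pearson r of 0.987. Sgol1 protects the cohesion of sister chromatids, Mybl2 is a transcription factor of the cell cycle and Uhrf1 maintains DNA methylation at replication. This likeness is a description, since it uses the values that chose the network and 7 of the 12 values of Mxd3 were not well above background. After the group means were removed, r was 0.76, 0.64 and 0.92. For Myc they were Socs3, a feedback inhibitor of cytokine signalling, with r of 0.962, Atp11a, a phospholipid flippase, with 0.959, and Egr2, an immediate early transcription factor, with 0.958. Within groups these were 0.89, 0.96 and 0.85. The correlations describe 12 arrays that share groups, slides and brightness.

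Markers of other cells are given for the challenge under rapamycin, their counts beside 19.8% of all genes called higher and 22.9% called lower. Of 6 macrophage markers 4 rose, and their summed log2 level was 5.05 to 5.30 in rapamycin and 6.40 to 6.46 in BA+rapamycin. Of the 4 tested erythroid markers 3 rose, with a summed level of 6.33 to 7.54 against 8.27 to 8.45, while Epb4.2 was not well above background on any array. Of tested neutrophil, lymphocyte and fibroblast markers, 2 of 5, 2 of 4 and 3 of 6 rose. Of 6 endothelial markers 1 rose and 2 fell, of 8 smooth muscle markers 1 rose and 3 fell, while 0 of 5 adipocyte and 0 of 3 striated muscle markers rose. Cidea was the only adipocyte marker called lower, at -2.61, and the other 4 had differences above 0 and a list median of 1.67. Among these, Ucp1 passed the filter through challenged groups alone. With Ucp1 left out, 4 adipocyte markers were tested, with a median of 1.70. Acta1 was the only striated muscle marker called lower, at -1.48, and the other 2 were above 0, with a list median of 0.03. Within the second slide, 1 marker each of the macrophage, erythroid, neutrophil, lymphocyte, fibroblast and endothelial lists rose, beside 6.32% of all genes. There 2 smooth muscle markers and 1 adipocyte marker fell, beside 5.65%, and 0 striated muscle markers were called. The part of these cells in the values of the network was not tested.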

How the data were processed

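RNA of 12 aortas was labelled with Cy3 and hybridised by the authors to Agilent mouse arrays of 1 colour, on 2 slides. The deposited scanner files hold, per the file headers, for each spot, a background-subtracted processed signal, a mean signal and a local background, all as intensity on a linear scale, with flags for spots that are saturated, outlying or well above background. They were read with Feature Extraction 10.7.1.1 per the file headers, while the submitters' processing notes name 9.5.1.1. The deposited matrix is intensity that equals a quantile normalization of the processed signal, with a correlation of at least 0.999997 on each array. No spot was saturated.

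Outlier spots were removed, log2 processed signal was averaged per probe, and the 75th percentile of each array was subtracted. Tested probes had signal well above background on each of the 3 arrays of some group, which left 27801 probes and 20026 genes, and a gene stood by its tested probe with the highest mean. limma 3.58.1 (R 4.3.3) fitted the 4 group means to all 12 arrays with moderated variances, and p values were two-sided and adjusted by Benjamini-Hochberg over all probes of a contrast. A call is an adjusted p under 0.05. A bound ("at least") sets a group below background to the lowest signal well above background on its arrays. Precision is limited by the number of arrays, and the 3 replicates of a group are separate mice per the series' design. The procedure was tested on simulated data.

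The members and the lists of genes were chosen with earlier results of these data known. All 10 members were named. From each list that is not a marker list, up to 2 of the largest called rises and falls of the challenge under rapamycin were named, and the 3 genes most correlated with Mxd3 and Myc. A few of these genes are not reported here. Probe positions are on mm9, and promoter windows on GRCm38.p6 were not converted.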

Additional observations from a re-analysis of the deposited data

How the results depend on the processing

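Each count of called members was recomputed under up to 27 alternatives. For the challenge under rapamycin, the count was 5 in the main analysis with Mxd3 included. It was 3 with only probes well above background on all arrays (6 members tested, beside 48.4% of all genes called). Within the second slide it was 2 (beside 12%), and with array brightness as a covariate it was 1 (beside 6.89%). Mxd3 is in both of these, and of the other 7 members 1 and 0 were called. When each array was left out the count was 3 to 7, Mxd3 included, beside 24.2% to 58.3% of all genes. It fell to 3 without rapamycin replicate 3, beside 24.2%, and rose to 7 without BA+DMSO replicate 2, beside 58.3%. BA+DMSO enters this comparison only through the shared variance. The challenge chose the network, so its counts are a description and no test of the members, and nothing is read from them. For the challenge the count was 4 in the main analysis, 2 with only the arrays of the contrast (beside 4.78%) and 1 with slide as a fixed block (beside 0.0599%). It was 2 to 5 when each array was left out, beside 7.87% to 39.4% of all genes. The count of 2 came without DMSO replicate 2 or 3 or BA+DMSO replicate 1, beside 7.87%, 11.7% and 11.9%. For rapamycin under challenge, 0, it was 5 with array weights, Mxd3 included (beside 25.9%). It was 0 to 5 when each array was left out, beside 0.115% to 41% of all genes. For the interaction, 0, it was 1 with array weights, Mxd3 itself (beside 3.42%). It was 0 to 3 when each array was left out, beside 0% to 11.2% of all genes. Without BA+DMSO replicate 2 these were 5 and 3, Mxd3 included, beside 41% and 11.2%. For rapamycin alone it was 0 throughout.

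Replicates 2 and 3 of DMSO share a batch mark and number in their titles with those of rapamycin, and their deviations from the group means correlated at 0.17 and -0.35. With this replicate block the count was 2, Mxd3 and Mga, for the challenge under rapamycin (beside 10.3%) and 1, Mxd3, for the challenge (beside 2.91%). The calls of Myc, Max and Mxd1 under rapamycin were lost (adjusted p = 0.160, 0.118 and 0.0599). DMSO replicate 1 shares both with BA+rapamycin replicate 3, and BA+DMSO replicate 1 the mark of BA+rapamycin replicate 1. With the mark as a random block (correlation 0.50) each count was that of the main analysis. BA+DMSO replicates 2 and 3 carry no mark and each stood as a block of its own, so this fit cannot address a batch of those arrays.

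No difference of a called member changed sign in any alternative. Mga stayed called for the challenge under rapamycin in 26 of 27. The exception was array brightness as a covariate (adjusted p = 0.0834), and brightness did not overlap between rapamycin and BA+rapamycin arrays. The cause of these shifts was not tested. Signal over background limits Mxd3, whose unchallenged level has only an upper bound, and Mycn and Mxi1, for which no difference can be given. Counts of the gene lists within the second slide and without BA+DMSO replicate 2, and values of the second Mxd4 probe without a BA+DMSO replicate and counts of members and proliferation genes by filter, were added after the data were seen.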
